A study of Rattus norvegicus with 6 samples.

Results

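The genes described here are 39 genes of the DNA replication machinery, measured in rat neural stem/progenitor cells (NSPCs) that were grown on carbon films of 3 conductivities. They were taken from the count tables by gene symbol, from a list that was drawn up with earlier results of these data known. Of the 39, 38 had a row among the 17048 rows of the tables (Chaf1a had none), and 35 were among the 7729 rows with enough counts to be tested. The NSPCs were wild-type cells from the telencephalon of embryonic Sprague-Dawley rats and were kept in medium with EGF and bFGF, which holds them in the stem cell state, and used at early passages. They were collected after 24 h on 1 of 3 films made from carbon nanotubes, where longer oxidation of the nanotubes gave the lower conductivity. The films were “High” (supraphysiological conductivity), “Medium” and “Low” (both termed neural tissue-like by the study). The value for Low lay slightly below the range that the study lists for native nerve tissue. In its NSPC adhesion assays the study coated the films with poly-D-lysine, less concentrated on Medium, and then with laminin. The sequencing methods do not restate the coating, and its part in the results was not tested. There were 2 libraries per film, and neither the labels nor the methods say whether the 2 came from separate cultures, so that every p-value below measures only the spread between these libraries. A culture without a film was not analysed here, and High served as the reference in 3 of the comparisons, which share its 2 libraries.

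Replication starts at origins, where the origin recognition complex, Cdc6 and Cdt1 load the ring of MCM proteins onto DNA. Cdc45 and the GINS proteins turn this ring into a moving helicase, and DNA polymerases, the sliding clamp PCNA and the clamp loader RFC copy the opened strands, while RPA covers single-stranded DNA. Nucleotide enzymes such as ribonucleotide reductase supply the building blocks. Most of these genes are transcribed ahead of and during S phase, many of them by E2F factors, and dividing neural progenitors are known for high levels of them. In RNA from bulk cultures, fewer cycling cells and less RNA per cycling cell cannot be told apart.

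The promoters of these genes were set beside those of the tested genes and beside all promoters, and the members were not taken out of either set. The set of all promoters was not reduced to 1 per gene, as the sets of members and of tested genes were. RefSeq promoters (rat build GRCr8) matched 33 of the 39 genes by symbol. In the 250 bases before the start, on either strand, 9 of the 33 (27.3%) held at least 1 of 4 E2F words, TTTGGCGC, TTTCGCGC, TTTCCCGC or TTTGCCGC, against 3.75% of the promoters of the tested genes and 1.73% of all 33469 promoters. The word CCAAT stood in 20 of the 33 (60.6%), against 37% of the promoters of tested genes and 34% of all promoters. TTTGAA, the core of the CHR element of late cell cycle genes, stood in 3 of the 33 (9.09%), against 9.5% and 16.2%. The 7 windows below carry E2F words, shown in capitals on the strand of the gene, and belong to MCM genes and to genes whose counts are described below.
Mcm2, chr4:122918095-122918128, minus strand: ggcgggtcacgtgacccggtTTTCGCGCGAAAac
Mcm5, chr19:13488580-13488631, plus strand: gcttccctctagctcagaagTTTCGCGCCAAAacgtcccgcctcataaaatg
Mcm6, chr13:42404460-42404511, minus strand: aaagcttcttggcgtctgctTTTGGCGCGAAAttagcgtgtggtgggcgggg
Mcm7, chr12:22163203-22163250, minus strand: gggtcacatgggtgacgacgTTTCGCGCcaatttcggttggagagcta
Gins1, chr3:160184875-160184919, plus strand: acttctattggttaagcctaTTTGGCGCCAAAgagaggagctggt
Pola1, chrX:62342500-62342547, minus strand: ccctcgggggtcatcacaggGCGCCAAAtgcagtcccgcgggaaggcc
Tyms, chr9:120776093-120776140, minus strand: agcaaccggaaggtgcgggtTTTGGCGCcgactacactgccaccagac

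The words of Mcm2, Mcm5, Mcm6 and Gins1 overlap on the 2 strands and run into each other. In Mcm7 a CCAAT word shares its first base with the last base of the E2F word. Pold1 and Rpa2, which are described below for their counts, held no E2F word in this window but held CCAAT on the opposite strand, shown in capitals here as ATTGG.
Pold1, chr1:104173158-104173202, minus strand: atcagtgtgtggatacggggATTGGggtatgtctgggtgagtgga
Rpa2, chr5:150260657-150260701, plus strand: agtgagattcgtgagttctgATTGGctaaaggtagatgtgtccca

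A match is a run of letters and not a measured site, and these data hold no binding assay. The 9 genes with an E2F word did not share a direction across the films. In Low and Medium averaged against High their fitted log2 fold changes were −0.11 (Mcm2), 0.00 (Mcm5), 0.38 (Mcm6), 0.70 (Mcm7), −2.33 (Gins1), 3.56 (Gins3), 2.68 (Pola1), −6.73 (Tyms) and 1.40 (Ung), none with an adjusted p under 0.05 by edgeR.

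The libraries were made with QuantSeq, which reads the 3′ end of polyadenylated transcripts, and held 5124863 to 6213676 counts each. Rows of ribosomal RNA held 26.1% and 38.4% of a High library and 7.16% to 13.0% of the 4 Medium and Low libraries, so that High is the film with the most ribosomal RNA, and the part of this in the results was not tested. Markers of radial glia, the neural stem cell type, summed to 2680 to 2993 (High), 4271 to 4730 (Medium) and 3803 to 5016 (Low) CPM (counts scaled to library size), with Hes5 at 0. Neuronal markers summed to 25.4 to 80.0, 105 to 124 and 68.5 to 151 CPM, oligodendrocyte lineage markers to 324 to 411, 553 to 636 and 616 to 745 CPM, and astrocyte markers to 140 to 157, 145 to 203 and 129 to 219 CPM. Of the microglial markers, 6 of 8 were at 0 in every library. Of the meningeal and vascular markers, 7 of 10 were at 0, and the list reached 390 CPM in Medium 2 alone, through Col1a1 and Col3a1. The radial glia and oligodendrocyte lineage sums were thus lower in both High libraries than in the other 4, but few genes carried them. Vim was most of the radial glia sum, and Vim, Sox2, Nes and Slc1a3 were each lower in both High libraries. Pax6, Hes1 and Fabp7 were not. Hes1 averaged 72.2 CPM in High and 33.4 in Low, and Fabp7 214 (High), 248 (Medium) and 80.1 (Low). Olig1 and Olig2 were most of the oligodendrocyte lineage sum, and only Olig2 was lower in both High libraries. Mog added 129 CPM in Medium 1 alone. Elavl4 was the largest part of the neuronal sum in every library. The part of these lists in the results below was not tested.

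As a group, the replication genes made up a similar share of the RNA on Medium and Low and a more variable share on High. All levels below are CPM after TMM normalization. The members summed to 2588 and 1697 CPM (High), 2821 and 2996 (Medium) and 2648 and 2703 (Low), or 2142 ± 630, 2909 ± 124 and 2675 ± 38.5 CPM (mean ± SD, n = 2 libraries). All 4 Medium and Low sums lay above both High sums, but High 1 was close to the lower Low sum and High 2 alone was far below. With DESeq2 size factors in place of TMM, High 1 (2611 CPM) was above Low 2 (2598 CPM). Of the 35 tested members, those at 0 numbered 4 and 7 (High), 6 and 1 (Medium) and 3 and 2 (Low), or 2.86% to 20% of them, where 7.83% to 33.4% of all tested rows were at 0. As a share of the counts outside ribosomal RNA, the members took 0.312% and 0.214% (High), 0.347% and 0.357% (Medium), and 0.318% and 0.321% (Low).

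**Figure D1:**
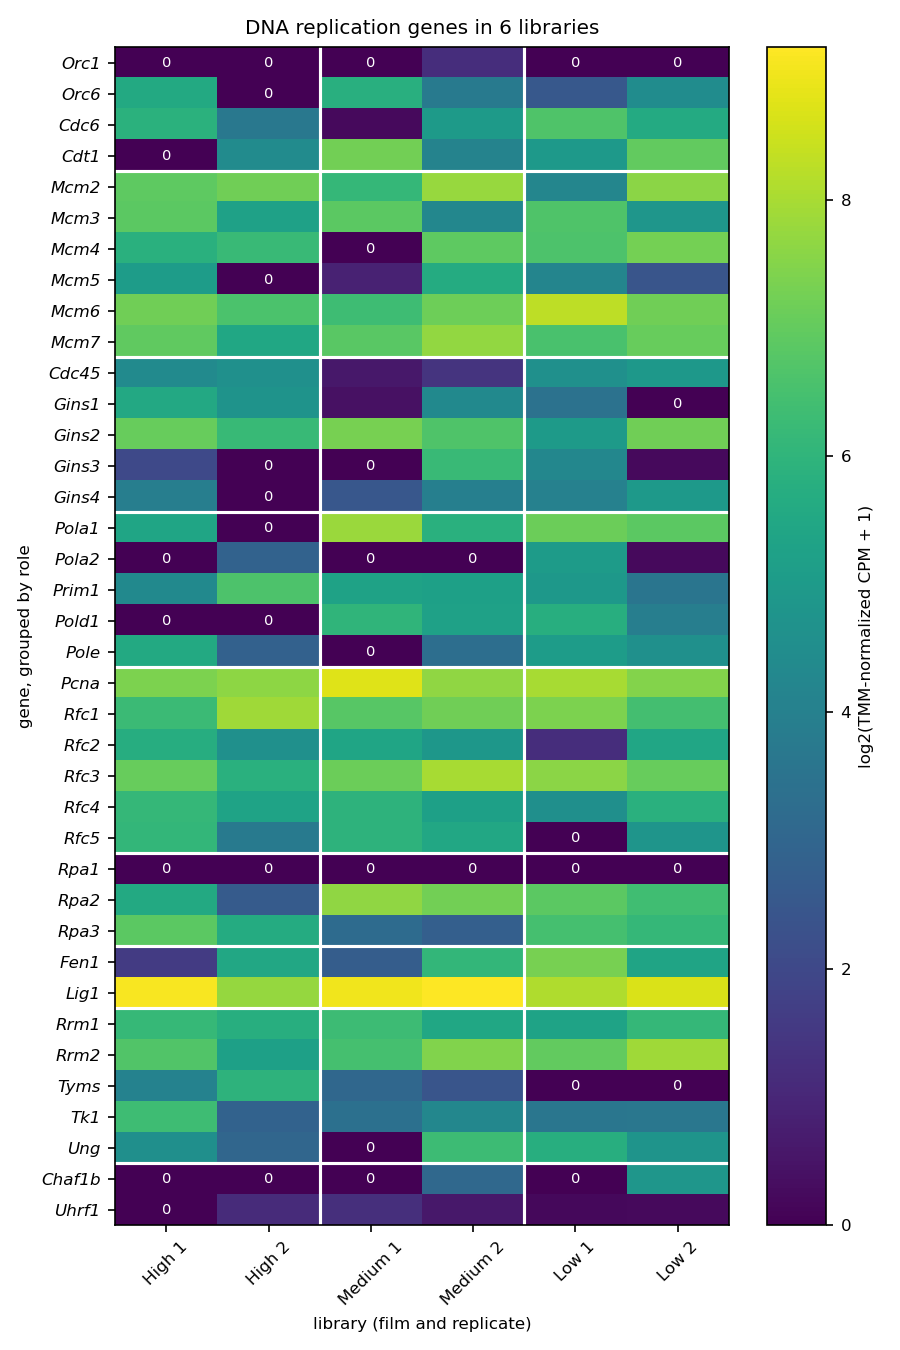
Heatmap of log2(TMM-normalized CPM + 1) of the 38 replication genes with a row, grouped by role (rows), in the 6 libraries (columns); 0 marks a count of 0. Every library holds at least 1 member at 0, and neighbouring columns of the same film often differ in colour.

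The summed levels by role can rest on 1 or 2 genes, so the number of genes in each direction is given with them. The 5 polymerase and primase genes summed to 108 and 111 CPM (High), 328 and 139 (Medium) and 285 and 165 (Low), so that the 4 Medium and Low sums lay above both High sums. Pola1 and Pold1 carried this sum, since with the floor 2 of the 5 genes were higher and 3 lower in Low and Medium averaged against High, with a median log2 fold change of −0.49. The 6 genes of the clamp and clamp loader summed to 562 and 562 CPM (High), 841 and 707 (Medium) and 636 and 520 (Low), with both Medium sums above the other 4, while 3 of the 6 genes were higher and 3 lower in Medium against High. The MCM helicase genes summed to 593 and 396 CPM (High), 378 and 751 (Medium) and 631 and 652 (Low), and the films overlapped. In the other roles, no film lay apart from both other films. These sums are a description and had no test.

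**Figure D2:**
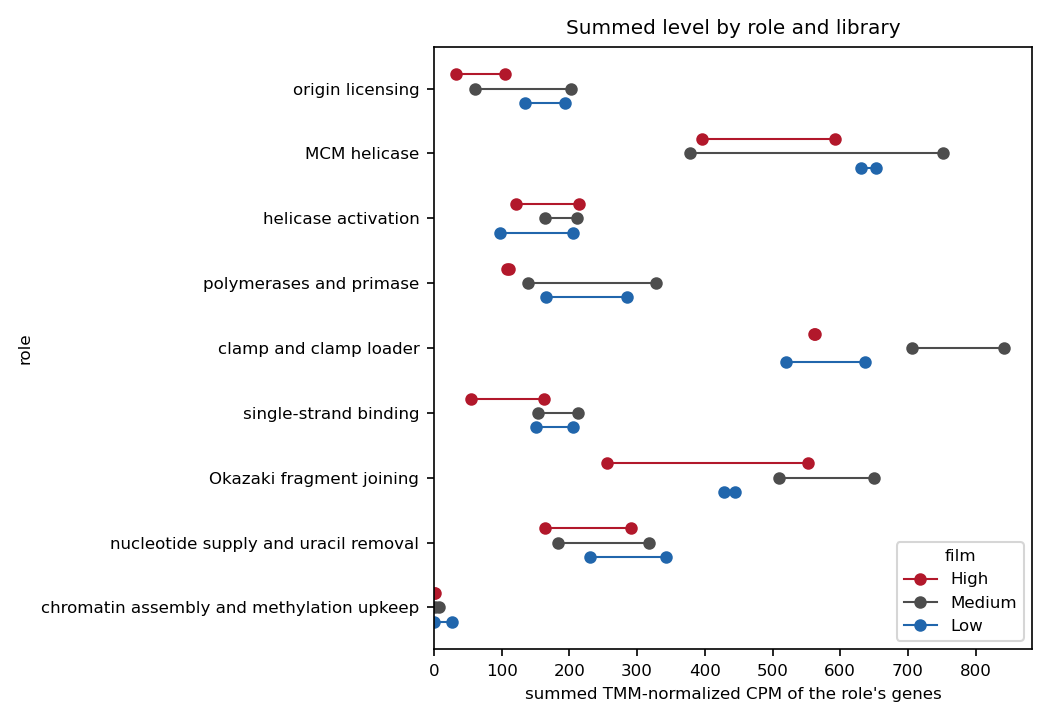
Summed TMM-normalized CPM of each role's genes (x axis, CPM) for the 2 libraries of each film, joined by a line. The polymerase and primase sums are lowest in the High libraries (108 and 111 CPM), carried by Pola1 and Pold1, and most other roles overlap between films.

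Gene by gene, no member passed the threshold. By edgeR's quasi-likelihood test, 0 of 35 members had an adjusted p under 0.05 in Low and Medium averaged against High, against a background of 0.129% of all tested rows (10 of 7729). Members numbered 0 in Low against High (background 0.0518%), in Medium against High (background 0.0129%) and in Low against Medium (background 0%). The smallest adjusted p over the members was 0.778, for Pold1. At an unadjusted p under 0.05 there were 2 members in Low and Medium averaged against High (5.71%, background 5.5%), 1 in Low against High (2.86%, background 4.27%), 3 in Medium against High (8.57%, background 4.04%) and 1 in Low against Medium (2.86%, background 1.51%). DESeq2, run as an alternative, called 2 members (5.71%, background 4.72% of the rows given an adjusted p), 2 (5.88%, background 4.08%), 2 (5.88%, background 4.31%) and 1 (3.03%, background 1.73%) in these comparisons, which were Pold1 and Tyms in the first and second, Pold1 and Rpa3 in the third, and Rpa3 in the fourth.

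The centre of the members' fold changes depended on how libraries at or near 0 were treated. With each library raised to a floor of 3 counts, the median log2 fold change of the 35 members was −0.06 in Low and Medium averaged against High (all tested rows −0.17), with 17 higher and 18 lower. It was −0.03 in Medium against High (all rows −0.19) and −0.17 in Low against Medium (all rows 0.13). In Low against High it was 0.72 (all rows 0.00), with 22 higher and 13 lower. That median was 0.24 from the fitted values, without the floor (all rows 0.02), and −0.035 without High 2. In Medium against High the fitted median was 0.36 (all rows −0.06), opposite in sign to the one with the floor. Scaling by library size alone raised the median of all rows by 0.40 in Low and Medium averaged against High, and turned the small negative fold changes of Cdc6, Mcm2, Mcm3, Rfc1, Rfc4 and Rrm1 positive. A fold rule was adapted from the study, with at least 1.5-fold between film means and a mean log2 level of at least 2. The addition of 1 CPM to each mean and the use of the level in the higher film were choices made here. By this rule, Low against High had 15 members up and 7 down (42.9% and 20%, backgrounds 30.6% and 30.1%). Medium against High had 12 and 8 (34.3% and 22.9%, backgrounds 27.9% and 32.8%), and Low against Medium 10 and 10 (28.6% each, backgrounds 29.8% and 24.5%).

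The spread between the libraries of 1 film was as large as that between films. Over the 35 members, the median absolute log2 difference between 2 libraries of the same film averaged 1.22 over 3 pairs, and that between libraries of different films averaged 1.29 over 12 pairs. All tested rows gave 1.23 and 1.24. In 30 of the 35 members the largest gap between replicates exceeded the largest gap between film means. This count was not made over all tested rows. It also sets single libraries against means of 2 libraries, which vary less. The exceptions were Cdc45, Pold1, Rpa2, Rpa3 and Tyms, of which Pold1 and Tyms had a film with both libraries at the floor. The common dispersion of the fit was 2.04, a coefficient of variation of 1.43 between libraries.

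**Figure D3:**
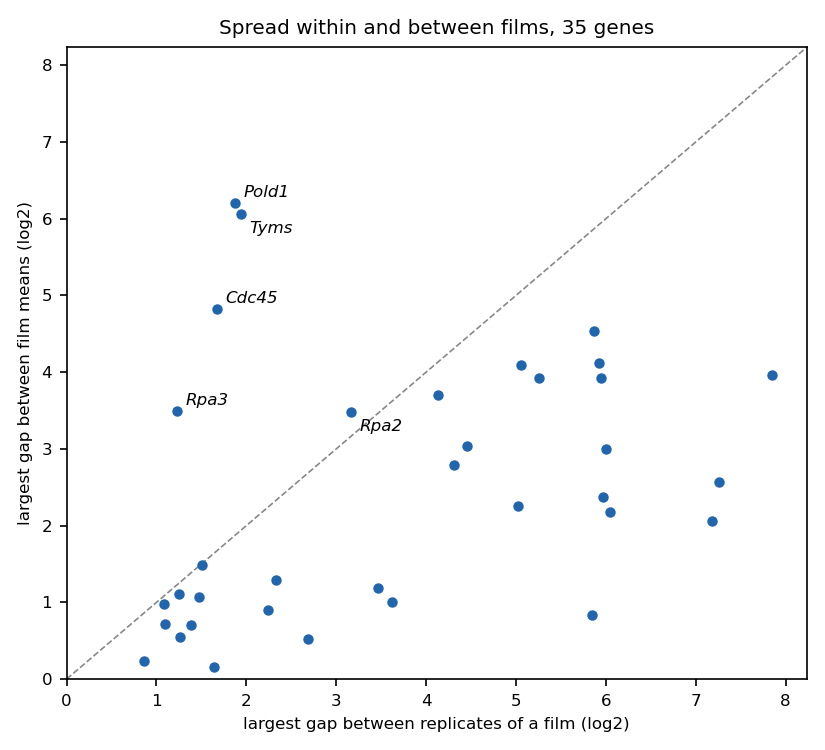
For each of the 35 tested members, the largest log2 gap between the 2 libraries of a film (x axis) against the largest log2 gap between film means (y axis), after a floor of 3 counts per library. The dashed line marks equality. Of the genes, 30 lie below it and the 5 named genes above, a count that was not made over all tested rows.

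The genes that load the helicase varied from library to library. Cdc6, which recruits Cdt1 and MCM proteins to origins, had counts of 280 and 50 (High), 1 and 190 (Medium) and 695 and 288 (Low). On the CPM scale High 1 lay between the Low libraries. On the log2 scale with the floor, the gap within Medium (5.92) was larger than the largest gap between film means (4.12). Its log2 fold change in Low against High was 1.10 ± 2.16 (SE; adjusted p = 1 by edgeR). Orc6, a subunit of the origin recognition complex, ran from 0 counts (High 2) to 317 (Medium 1), and Cdt1 from 0 (High 1) to 870 (Medium 1). Orc1, the largest subunit, had 8 counts in Medium 2 and 0 in the other 5 libraries.

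Among the MCM helicase subunits, Mcm2, Mcm3, Mcm6 and Mcm7 were counted in all 6 libraries and none differed between films beyond its spread. Mcm6 had counts of 718 and 404 (High), 471 and 868 (Medium) and 2116 and 865 (Low). Its mean level was 122 ± 36.3, 111 ± 43.3 and 225 ± 114 CPM (SD, n = 2), so the higher mean on Low rested on Low 1, and Low against High was a log2 fold change of 0.89 ± 0.65 (SE; adjusted p = 0.937 by edgeR). Mcm7 had counts of 591 and 184 (High), 660 and 1261 (Medium) and 647 and 790 (Low), with all 4 Medium and Low counts above both High counts. On the CPM scale High 1 lay above Medium 1 and Low 1, and the log2 fold change of Low and Medium averaged against High was 0.70 (95% interval −0.86 to 2.26). Mcm2 had 579 and 613, 398 and 1336, and 121 and 1150 counts in the same order, so that the gap within Medium and within Low was wider than within High. Mcm3 had 572 and 156, 680 and 111, and 699 and 164 counts, 1 high and 1 low library on every film, with a log2 fold change of −0.23 (95% interval −2.77 to 2.31). Mcm4 (0 to 907 counts) and Mcm5 (0 to 301 counts) each had a 0 in 1 library.

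Of the factors that activate the helicase, Cdc45 stood apart on Medium. It had counts of 98 and 100 (High), 3 and 10 (Medium) and 161 and 172 (Low), or 21.9 ± 2.58, 1.07 ± 0.792 and 26.0 ± 3.90 CPM. Both Medium libraries lay below the other 4, a separation seen in 5.54% of all tested rows and shared among the members by Rpa3. The test found a log2 fold change of −4.32 in Medium against High (95% interval −11.96 to 3.31, adjusted p = 0.963 by edgeR). Gins1 had counts of 223 and 108 (High), 2 and 120 (Medium) and 70 and 0 (Low). Its 4 Medium and Low libraries lay below both High libraries on the CPM scale, with a log2 fold change of −2.33 (95% interval −8.72 to 4.07). Gins2, another GINS subunit, had 637 and 300, 928 and 616, and 215 and 876 counts, with a log2 fold change of 0.09 (95% interval −1.68 to 1.86). Gins4 was highest in the 2 Low libraries (108 and 184 counts, against 0 to 89 in the others; on the CPM scale both Low libraries lay above the other 4, as in 7.3% of all tested rows), and Gins3 ran from 0 to 454 counts.

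Among the polymerase genes, Pold1 and Pola1 were lowest on High. Pold1, the catalytic subunit of DNA polymerase delta, which makes most of the lagging strand, had counts of 0 (both High libraries), 373 and 230 (Medium) and 365 and 86 (Low). In mean CPM of these libraries, Low and Medium averaged were thus at least 63.4-fold above High. Medium was at least 76.3-fold and Low at least 50.5-fold above High. These bounds were computed against a floor of 3 counts in each High library and leave out the spread between libraries. The fitted log2 fold change of Pold1 had a 95% interval of 2.65 to 19.08 in Low and Medium averaged against High. In Low against High it was 2.32 to 18.82. The bound for Low was 21.6-fold without Low 1 and 79.3-fold without Low 2. Its adjusted p was 0.778 in Low and Medium averaged against High by edgeR (unadjusted p = 0.0163 in the same quasi-likelihood fit) and 0.000158 by DESeq2. Pola1, the catalytic subunit of polymerase alpha, had counts of 203 and 0 (High), 1322 and 342 (Medium) and 959 and 695 (Low), all 4 above both High libraries. Its log2 fold change was 2.68 (95% interval −0.98 to 6.34, adjusted p = 0.801 by edgeR). Without High 1, which leaves High with its library at 0, edgeR gave Pola1 an adjusted p of 0.000175, so that this call turned on 1 library.

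Such a separation of all 4 Medium and Low libraries from both High libraries was not frequent among the members. It was seen in 5 of 35 (14.3%), against 18.2% of all tested rows. Pola1, Pold1 and Rpa2 were higher (8.57%, background 8.06%), and Gins1 and Tyms lower (5.71%, background 10.1%). The High libraries were also those with the most ribosomal RNA, and with its rows left out before scaling 0 members passed and 3 were at an unadjusted p under 0.05 by edgeR (8.57%, background 5.51%).

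The other genes of this role did not separate the films. Prim1, the catalytic subunit of primase, which makes the RNA primers, had 95 and 413, 222 and 222, and 202 and 66 counts, with High 2 the highest. Pola2, the second subunit of the polymerase alpha complex, was at 0 in 3 libraries and had 223 counts in Low 1. Pole, of the leading strand polymerase, ran from 0 (Medium 1) to 229 (Low 1).

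**Figure D4:**
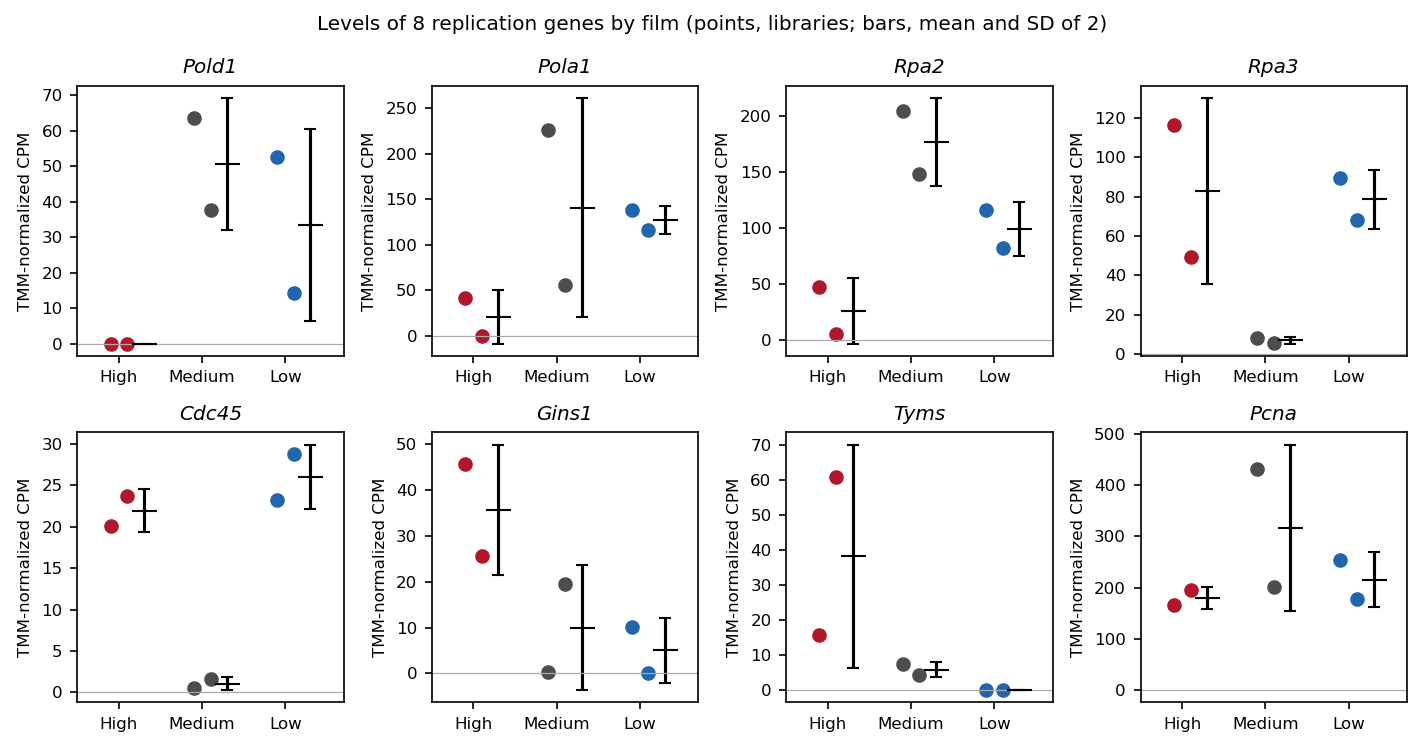
TMM-normalized CPM (y axes) of 8 replication genes by film; points are libraries, horizontal bars the mean and vertical bars the SD of 2 libraries. Pold1 is at 0 in both High libraries and Tyms in both Low libraries, Cdc45 and Rpa3 are lowest in both Medium libraries, and Pcna overlaps between films.

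Of the sliding clamp and its loader, Pcna, Rfc1, Rfc3 and Rfc4 had more than 100 counts in every library, and Rfc2 and Rfc5 did not. Pcna had counts of 805 and 820 (High), 2522 and 1232 (Medium) and 1754 and 1066 (Low). Its levels were 180 ± 21.0, 316 ± 162 and 216 ± 52.9 CPM, and the log2 fold change of Low and Medium averaged against High was 0.54 (95% interval −0.46 to 1.53, adjusted p = 0.886 by edgeR). The counts of all 4 Medium and Low libraries were above those of both High libraries, but on the CPM scale Low 2 lay below High 2. Rfc3, a small subunit of the loader, had 651 and 236, 807 and 1541, and 1335 and 790 counts, and its log2 fold change was 0.91 (95% interval −0.43 to 2.24). Rfc1, the large subunit, had 368 and 989, 642 and 884, and 1151 and 514 counts, with a log2 fold change of −0.29 (95% interval −1.71 to 1.12).

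Rfc2 had 254 and 100, 244 and 174, and 9 and 252 counts, so that a single library, Low 1, was low. Rfc4 had 334 and 167, 355 and 225, and 160 and 332 counts, with the films overlapping. Rfc5 ran from 0 counts in Low 1 to 351 in Medium 1. For all 6 clamp and loader genes the floored log2 difference between Low and Medium was negative, although none passed the test. It was only −0.08 for Rfc1, and for Rfc2 and Rfc5 Low 1 was by far the lowest library (9 and 0 counts). The share of all tested rows with a negative difference was not counted. Reads of Pcna, Rfc4 and Rfc5 may be shared with pseudogenes, as may those of Mcm2, Mcm4, Mcm7, Gins4, Rpa3, Rrm1, Tk1 and Ung, since reads with several alignments were counted, and Gins2, Fen1, Lig1 and Rrm2 overlap another gene, so that the counts of these members are uncertain.

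Of the single-strand binding protein RPA, 2 of the 3 subunits had counts, and neither passed the edgeR threshold. Rpa2, the middle subunit, had counts of 228 and 22 (High), 1193 and 908 (Medium) and 802 and 490 (Low). Both Medium libraries lay above the other 4 (5.74% of all tested rows), both Low libraries lay between, and the means were 26.0 ± 29.4, 176 ± 39.3 and 98.8 ± 23.9 CPM. How many of all tested rows had the films apart in this order was not counted. The log2 fold change in Low and Medium averaged against High was 2.34 (95% interval 0.11 to 4.58, adjusted p = 0.801 by edgeR), and that in Medium against High was 2.76 (95% interval 0.32 to 5.20, adjusted p = 0.908 by edgeR). Rpa3, the small subunit, had counts of 566 and 208 (High), 48 and 36 (Medium) and 619 and 408 (Low). Its Medium level was 7.04 ± 1.64 CPM, against 82.8 ± 47.2 in High and 78.7 ± 14.9 in Low, and both Medium libraries lay below the other 4.

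Medium against High was a log2 fold change of −3.55 for Rpa3 (95% interval −6.78 to −0.32, adjusted p = 0.908 by edgeR and 0.00535 by DESeq2). Low against Medium was 3.48 (95% interval 0.26 to 6.70, adjusted p = 1 by edgeR and 0.0157 by DESeq2). Rpa1, the large subunit that binds DNA, had 0 counts in all 6 libraries, and a floor of 3 counts is all that can be placed on it. RefSeq lists a pseudogene of Rpa1, and whether its transcript was absent or was missed by the counting was not tested. RPA works as a complex of these 3 subunits, and the tables thus gave no common level for it.

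Of the genes that finish Okazaki fragments, Lig1 (DNA ligase I), which seals the fragments, was counted most deeply of all members. It had counts of 2683 and 888 (High), 2953 and 3571 (Medium) and 1888 and 2424 (Low), or 381 ± 240, 544 ± 55.6 and 339 ± 93.9 CPM. Its log2 fold change in Low and Medium averaged against High was 0.17 with the narrowest interval of all members (95% interval −0.71 to 1.06). Fen1, the flap endonuclease, had 10 and 189, 32 and 405, and 1082 and 238 counts, with a wide gap within each film and Low 1 the highest.

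Among the genes of nucleotide supply, Tyms (thymidylate synthase) followed the order High, Medium, Low without passing the edgeR threshold. It had counts of 77 and 256 (High), 43 and 27 (Medium) and 0 (both Low libraries), and the 3 films did not overlap. The share of all tested rows with the 3 films apart in this order was not counted. Both Low libraries lay below the other 4, as in 4.66% of all tested rows. In mean CPM of these libraries, Low was at least 82.0-fold below High and at least 12.6-fold below Medium. This was computed against a floor of 3 counts in each Low library and leaves out the spread between libraries. The fitted log2 fold change had a 95% interval of −21.38 to −0.14 in Low against High. In Low against Medium the interval ran from −17.45 to 1.33 and so held 0. The bound against High was 33.8-fold without High 2 and 130-fold without High 1. The adjusted p was 0.801 in Low and Medium averaged against High by edgeR and 0.0403 by DESeq2. Rrm2, the regulated subunit of ribonucleotide reductase, had 505 and 153, 516 and 1059, and 870 and 1420 counts. Its log2 fold change was 1.14 (95% interval −0.45 to 2.73, adjusted p = 0.801 by edgeR). Rrm1, the large subunit, had 342 and 224, 459 and 265, and 274 and 408 counts, with a log2 fold change of −0.11 (95% interval −2.53 to 2.31).

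Tk1, the thymidine kinase of the salvage pathway, had 385 and 27, 56 and 110, and 77 and 68 counts, so that 1 High library was high and the other below all others. Ung, which removes uracil from DNA, ran from 0 (Medium 1) to 479 (Medium 2). Of the genes that act behind the fork, Chaf1b (a histone chaperone subunit) was at 0 in 4 libraries, with 46 counts in Medium 2 and 162 in Low 2. Uhrf1, which directs maintenance methylation, had at most 8 counts in any library.

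**Figure D5:**
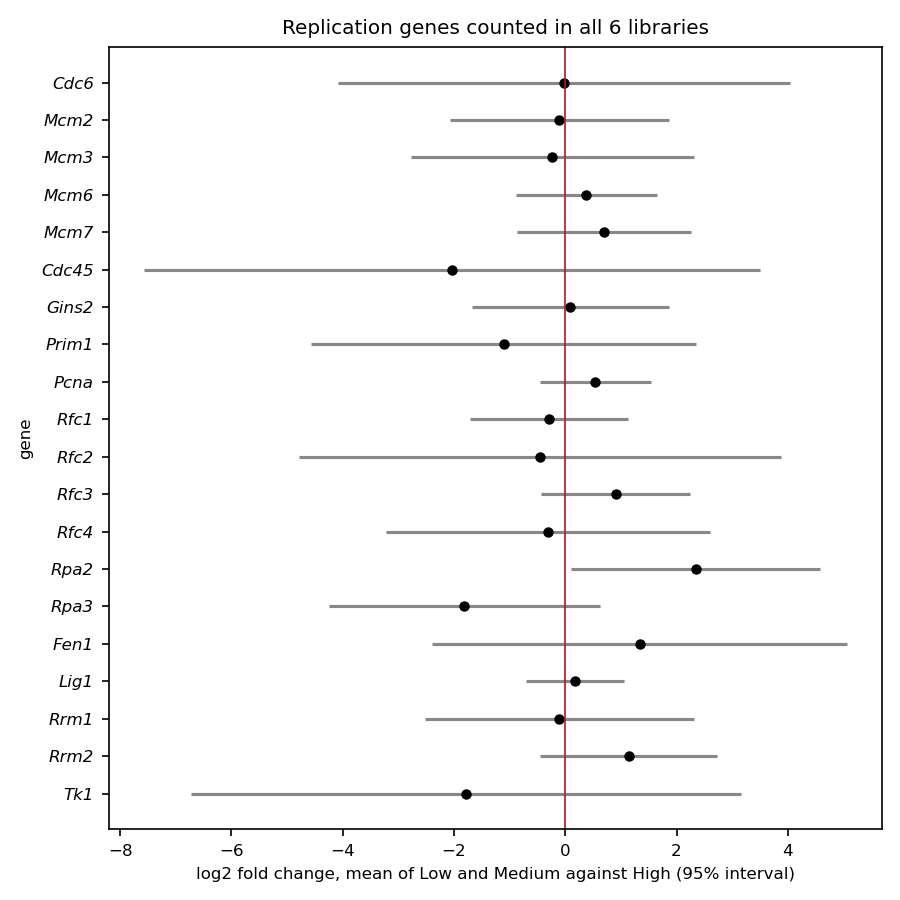
Fitted log2 fold change of Low and Medium averaged against High (x axis) with 95% interval for the 20 members with a count above 0 in all 6 libraries. The intervals of 19 genes cross 0; that of Rpa2 runs from 0.11 to 4.58 with an adjusted p of 0.801 by edgeR.

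The wider lists of replication and mitosis genes held no gene past the threshold either. Of 66 further replication genes, 50 were tested and 0 passed in Low and Medium averaged against High by edgeR (background 0.129%). At an unadjusted p under 0.05 by edgeR there was 1 (2%, background 5.5%), and DESeq2 called 2 (background 4.72%). The median log2 fold change of the 50 was −0.26 against −0.17 for all rows. The gene at that unadjusted p was Ccna2, cyclin A2, which drives S phase and had counts of 0 and 6 (High), 401 and 116 (Medium) and 765 and 879 (Low). Its log2 fold change was 6.69 (95% interval 2.20 to 11.19, adjusted p = 0.616 by edgeR and 9.79e-06 by DESeq2). Of 36 mitosis and spindle genes, 33 were tested and 0 passed, with a median of −0.12. DESeq2 called 2 (background 4.72%), and 1 was at an unadjusted p under 0.05 by edgeR (3.03%, background 5.5%). That gene was Birc5, survivin, a subunit of the chromosomal passenger complex, with counts of 727 and 539 (High), 1801 and 4497 (Medium) and 3524 and 1725 (Low), or a log2 fold change of 1.72 (95% interval 0.72 to 2.71, adjusted p = 0.468 by edgeR and 0.00252 by DESeq2).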

How the data were processed

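RNA was measured in 6 libraries of rat NSPCs on High, Medium and Low films (2 each), mapped from the sample labels. The authors aligned QuantSeq 3′ reads by Bowtie2, took read numbers on genes from Bedtools coverage, with reads of both single and several alignments (build rn6, per the submitters' processing notes), and the values they deposited are raw counts. The annotation, the tool versions, duplicate removal and the use of strand in counting are not given in the sources used here. The labels name Trizol and the methods a Ribospin kit for RNA isolation. Counts from multiple alignments make genes with copies uncertain. RefSeq lists pseudogenes of 12 of the 39 members (among them Pcna, Mcm2, Mcm7, Rpa3 and Rrm1), and 5 overlap another protein-coding gene (Gins2, Fen1, Lig1, Rrm2 and Uhrf1).

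Counts were filtered with filterByExpr, TMM-normalized and tested with edgeR 4.0.16 (R 4.3.3, limma 3.58.1) by the quasi-likelihood test in 1 fit of the 3 film means over 6 libraries (3 residual degrees of freedom, prior 6.96), with Benjamini-Hochberg adjustment over 7729 rows and a threshold of 0.05. Alternatives were DESeq2 1.42.0, other scalings and filters, the replicate number as a block, and leaving out each library. Libraries at 3 counts or fewer were raised to 3 counts for medians and for folds given as lower bounds. An exact permutation test of 1 gene could not go below p = 0.133 (4 against 2 libraries) or 0.333 (2 against 2). No column was left unused (0 columns). The removal of PCR duplicates being unknown, floors cover counting error only.

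The members and gene lists were chosen with earlier results of these data known. A member was given by library where it passed an adjusted or unadjusted p of 0.05 in any comparison, was above 0 in all 6 libraries, or had all 4 Low and Medium libraries on 1 side of both High libraries. The other members were given by range, except Orc1, Pola2, Gins4, Chaf1b and Uhrf1, whose libraries were chosen after their values were seen, as were the separations of both Medium or both Low libraries from the other 4 the sums under other scalings and the lower bounds without each library. Of the wider lists, genes at an unadjusted p under 0.05 in Low and Medium averaged against High were named.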

Additional observations from a re-analysis of the deposited data

How the results depend on the processing

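In Low and Medium averaged against High, library sizes alone moved the median of all genes by 0.40 (log2) and turned 6 lower members to higher, with log2 fold changes of 0.27 (Cdc6), 0.27 (Mcm2), 0.14 (Mcm3), 0.15 (Rfc1), 0.070 (Rfc4) and 0.28 (Rrm1). DESeq2 called 2 members in that comparison, 2 in Low against High, 2 in Medium against High and 1 in Low against Medium, together with 2 further replication genes and 2 mitosis genes in the first comparison, and of all rows it called 351, 291, 307 and 118 in the 4 comparisons, where edgeR called 10, 4, 1 and 0. Mitosis genes called were 1 (Birc5) with no filter, 1 with a mean count of at least 10 and 1 with the replicate block. The median of the members in Low against High was 0.24 from edgeR's fitted values with no floor, also 0.24 from the fitted values with the replicate block, and 0.18 from those of DESeq2. The numbers of the replicates did not pair the libraries (correlations of 0.0081, 0.0024 and 0.0106 between same-numbered libraries), and the block called 0 members in every comparison and 57 of all rows in place of 10 in Low and Medium averaged against High. The cause was not tested for any of these.

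Leaving out 1 library at a time gave 0 to 1 members called in each of the 4 comparisons. The call was Pola1 without High 1 in the 3 comparisons with High, and Mcm4 without Medium 2 in the 3 comparisons with Medium. Of all rows, these fits called 34 to 242 in Low and Medium averaged against High, 19 to 65 in Low against High, 11 to 275 in Medium against High and 0 to 194 in Low against Medium. In the first comparison they called 0 to 1 of the further replication genes and 0 to 2 of the mitosis genes. The members' median ran from −0.38 (without High 2) to 0.41 (without High 1) in that comparison, from −0.035 to 0.81 in Low against High, from −0.30 to 0.60 in Medium against High and from −0.35 to 0.15 in Low against Medium. The direction of 12 named members changed with a library left out. The lowest and highest log2 fold changes were −3.20 and 1.52 for Cdc6, −1.40 and 0.33 for Mcm2, −1.18 and 0.83 for Mcm3, −0.67 and 0.59 for Gins2, −1.84 and 0.49 for Prim1, −0.89 and 0.74 for Rfc1, −2.48 and 0.22 for Rfc2, −0.69 and 0.14 for Rfc4, −0.038 and 4.84 for Fen1, −0.36 and 1.03 for Lig1, −0.35 and 0.11 for Rrm1, and −2.67 and 0.95 for Tk1. The other 12 named members kept their direction, which for Pold1, Pola1, Rpa2, Tyms and Gins1 follows from the separation of their libraries, but several values moved, from 1.49 to 4.65 for Rpa2, 1.68 to 12.6 for Pola1, −6.21 to −1.83 for Gins1, −2.30 to −1.07 for Rpa3, 0.57 to 2.08 for Rrm2, 0.14 to 1.62 for Mcm7, 0.06 to 0.72 for Mcm6, 0.21 to 0.74 for Pcna and 0.41 to 1.67 for Rfc3. A lone remaining library of a film was assumed to vary like the other films.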

Other observations

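Cdc20, which activates the anaphase-promoting complex and was chosen after its values were seen, had counts of 1160 and 885 (High), 1552 and 1669 (Medium) and 3809 and 2588 (Low). The 4 Medium and Low libraries lay above both High libraries, as in 8.06% of all tested rows. Both Low libraries lay above the other 4, as in 7.3%. In Low against High its log2 fold change was 1.13 (95% interval 0.34 to 1.93, adjusted p = 0.899 by edgeR and 0.0129 by DESeq2). Of the 33 tested mitosis genes, 6 had all 4 Medium and Low libraries apart from both High libraries (18.2%, background 18.2%). Of these, 4 were higher and 2, Prc1 and Incenp, lower.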
